A study of Mus musculus with 12 samples.

Results

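Cultured mouse heart myofibroblasts given macrophage migration inhibitory factor (MIF) alone were compared with cells given carrier, on 6 of the 12 microarrays of the series, 3 in each group. The arrays were chosen by the sample labels, and the comparison covers all 22206 probe sets that are not controls. Carrier cells and MIF cells alike were fibroblasts from hearts of wildtype C57BL/6J newborn mice aged 1 to 7 days, which the labels describe as having become myofibroblasts over 10 to 14 days in culture. The carrier group received neither protein, and the MIF group received 8 nM MIF. RNA was taken after 8 h in both. The other 6 arrays held cells given 40 nM sCD74, a soluble form of the MIF receptor CD74, without MIF or with 8 nM MIF, and they serve below as a second addition of MIF that shares no array with the first. Whole-transcript labelling started from 150 ng of total RNA. Arrays of the same replicate number share a code in their titles, and the 3 MIF arrays were paired with the 3 carrier arrays by it. Nothing in the labels tells if the 3 replicates were separate isolations or how many animals each held, so the p-values measure the spread between these arrays, which may be technical.

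MIF is a secreted cytokine that binds CD74, with CD44 as a signalling partner, and also the chemokine receptors Cxcr4, Cxcr2 and Ackr3. Cytokine signals of this kind can end in NF-kappaB, a family of transcription factors held in the cytoplasm by inhibitors such as the product of Nfkbia. When the inhibitor is degraded, NF-kappaB enters the nucleus and drives genes for chemokines, adhesion molecules, survival factors and its own inhibitors. Myofibroblasts are the contractile, matrix-forming fibroblasts of the injured heart, and they also release chemokines.

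Levels are log2 values of the deposited table, and a difference is MIF minus carrier on that log2 scale. The values reached 18.39. A 16-bit scanner gives at most 16 in log2, and each array had 231 to 251 probe sets beyond that, so the size of a difference as a fold depends on a scale that the sources used here do not give. Array medians lay between 8.10 and 8.14 on the 6 arrays, and the gap between positive and negative control medians between 3.77 and 4.25. The negative control median, a guide to the background level, averaged 7.53. It was 7.69, 7.37 and 7.70 on the 3 carrier arrays and 7.45, 7.48 and 7.47 on the 3 MIF arrays. Of 19505 named genes, 11135 had means at or above 7.53 in both groups. Markers of the labelled cell type were read: all 11 measured fibroblast markers lay above that level. Acta2, the smooth muscle actin of myofibroblasts, averaged 16.46 ± 0.10 in carrier and 16.55 ± 0.20 with MIF (SD, n = 3 each). Lying above the negative control median does not tell cell types apart. It also held for 14 of 15 macrophage, 10 of 11 endothelial and 9 of 12 cardiomyocyte markers, which are described below.

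Promoters of 6 genes are shown because the groups of genes described below, the NF-kappaB inhibitors, chemokines and interferon-inducible GTPases, are known for motifs near their start sites. Each sequence runs 5′ to 3′ on the gene's own strand from 250 bases before the RefSeq transcript start to 50 after it, in the assembly GRCm38.p6. Capitals mark a match, on either strand, to the kappaB consensus bound by NF-kappaB, to TGANTCA (bound by AP-1), or to TTTC, any 2 bases and TTTC (the core of the interferon-stimulated response element, ISRE). The windows are chr9:7873121-7873420 for Birc3 (minus strand), chr12:55492598-55492897 for Nfkbia (minus), chr10:19015361-19015660 for Tnfaip3 (minus), chr5:92348840-92349139 for Cxcl10 (minus), chr3:142620413-142620712 for Gbp2 (plus) and chr11:49064163-49064462 for Tgtp2 (minus).
Birc3: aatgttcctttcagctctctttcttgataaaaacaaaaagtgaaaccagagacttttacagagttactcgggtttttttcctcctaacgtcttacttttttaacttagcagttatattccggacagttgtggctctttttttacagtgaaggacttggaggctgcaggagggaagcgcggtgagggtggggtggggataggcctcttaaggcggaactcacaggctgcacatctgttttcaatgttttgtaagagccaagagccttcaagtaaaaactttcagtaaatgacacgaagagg
Nfkbia: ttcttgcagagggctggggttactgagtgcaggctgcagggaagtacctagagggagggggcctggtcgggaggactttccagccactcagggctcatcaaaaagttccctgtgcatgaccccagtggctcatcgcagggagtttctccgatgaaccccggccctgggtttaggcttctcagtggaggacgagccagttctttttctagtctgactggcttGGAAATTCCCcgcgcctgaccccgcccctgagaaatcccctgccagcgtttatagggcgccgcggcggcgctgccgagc
Tnfaip3: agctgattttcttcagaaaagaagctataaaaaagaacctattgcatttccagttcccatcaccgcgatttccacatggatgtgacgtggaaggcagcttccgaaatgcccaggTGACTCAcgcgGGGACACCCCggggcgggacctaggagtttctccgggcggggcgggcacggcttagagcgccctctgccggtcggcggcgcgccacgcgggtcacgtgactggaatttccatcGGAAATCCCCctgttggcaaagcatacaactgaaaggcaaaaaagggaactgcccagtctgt
Cxcl10: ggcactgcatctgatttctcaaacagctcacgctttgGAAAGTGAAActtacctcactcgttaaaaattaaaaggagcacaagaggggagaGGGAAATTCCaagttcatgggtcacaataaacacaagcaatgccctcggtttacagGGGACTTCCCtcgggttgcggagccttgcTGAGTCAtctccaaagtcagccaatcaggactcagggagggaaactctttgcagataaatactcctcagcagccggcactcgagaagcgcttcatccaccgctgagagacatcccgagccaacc
Gbp2: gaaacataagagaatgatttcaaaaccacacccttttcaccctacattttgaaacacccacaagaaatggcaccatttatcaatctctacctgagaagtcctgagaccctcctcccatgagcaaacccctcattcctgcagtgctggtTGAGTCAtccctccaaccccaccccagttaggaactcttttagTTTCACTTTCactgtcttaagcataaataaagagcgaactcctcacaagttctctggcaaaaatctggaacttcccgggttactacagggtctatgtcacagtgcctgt
Tgtp2: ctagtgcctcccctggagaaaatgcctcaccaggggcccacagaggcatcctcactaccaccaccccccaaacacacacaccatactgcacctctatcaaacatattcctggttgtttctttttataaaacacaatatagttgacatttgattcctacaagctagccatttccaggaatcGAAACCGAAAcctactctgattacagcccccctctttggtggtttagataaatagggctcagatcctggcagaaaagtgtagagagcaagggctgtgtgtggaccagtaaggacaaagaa
Across all 32841 promoter windows of that length, 4.51% held the kappaB consensus, 7.81% TGANTCA and 3.44% the ISRE core. The Nfkbia window held 1 kappaB match, starting 29 bases before the transcript start. Tnfaip3 has a second RefSeq start site, with a window at chr10:19011914-19012213 (minus) that held 0 matches and is not printed. The Birc3 window held none of the 3 motifs, which says only that those letters are not in that window. A match is a description of the sequence and not a measured binding site.

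No probe set passed the test: 0 of 22206 (0%) had an adjusted p under 0.05 (limma, Benjamini-Hochberg over all 22206), and the smallest adjusted p was 0.704. At an unadjusted p under 0.05 there were 1395 probe sets (6.28%), 742 higher with MIF (3.34%) and 653 lower (2.94%), where a share of 5% would be 1110.3. The standard error of a difference had a median of 0.14, and the 5% and 95% points of all differences lay at -0.29 and 0.30. All gene values below are therefore descriptions of differences that did not pass the adjusted test. Only 11 probe sets lay at least 1 log2 unit above carrier (0.0495%) and 0 lay as far below (0%). Of these, 8 had gene symbols: Cxcl10, Ccl2, Ccl5, Sele, Acod1, Tgtp2, Iigp1 and Gbp4. They encode 3 chemokines, the leukocyte adhesion molecule E-selectin, the itaconate-forming enzyme Acod1 and 3 interferon-inducible GTPases. Both Acod1 means were below the negative control median, and Cxcl10 in carrier. Sele read 8.598, 9.42 and 8.25 in carrier and 8.73, 10.62 and 10.55 with MIF, in replicate order. The Sele groups overlapped, because MIF replicate 1 stood below carrier replicate 2. Sele, Acod1 and the unnamed probe sets were singled out after their values were seen.

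The smallest p belonged to Birc3, which encodes cIAP2, a ubiquitin ligase that blocks cell death downstream of TNF receptors and is itself a target of NF-kappaB. Birc3 read 11.94, 12.42 and 12.10 on carrier replicates 1, 2 and 3 and 12.41, 13.23 and 13.24 on the MIF arrays of the same numbers. Each MIF array lay above its own carrier array, while MIF replicate 1 lay just below carrier replicate 2, so the groups overlapped narrowly. The Birc3 difference was 0.81 ± 0.14 (SE from the fit of 12 arrays), with an adjusted p of 0.704 by limma. Here and below, the error of a difference pools the spread of all 12 arrays. It can therefore differ from the scatter of the 3 paired differences of a gene. An alternative added after seeing the data, with an intensity trend and robust variance over 1 probe set per named gene, gave Birc3 an adjusted p of 0.0462. The same trend and robust variance over all probe sets gave 0.06, and over the alternatives run the adjusted p of Birc3 ranged from 0.0462 to 1.

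The 12 genes above carrier with the smallest p, all 3 pairs sharing the sign and both means at or above the negative control median, were Birc3, Cx3cl1, Slco3a1, Slc7a2, Itga2, Enpp4, Nfkbia, Olr1, Ets2, Has2, Ch25h and Slc39a14. Cx3cl1 encodes fractalkine, a chemokine tethered to the membrane. Its level was 8.69, 9.28 and 9.20 in carrier and 9.32, 9.79 and 9.71 with MIF, every MIF array above every carrier array, and its difference was 0.55 ± 0.11. Slco3a1, an organic anion transporter that carries prostaglandins, read 11.53, 11.71 and 11.09 in carrier and 12.14, 12.20 and 12.55 with MIF. Its difference of 0.85 ± 0.19 was the largest of the 12, and its groups did not overlap. Slc7a2 encodes a transporter of cationic amino acids such as arginine. It read 10.44, 10.28 and 10.08 in carrier and 10.57, 11.14 and 11.07 with MIF, again without overlap, for a difference of 0.66 ± 0.15. Over all named genes, the MIF arrays lay all above the carrier arrays in 710 (3.64%) and all below in 634 (3.25%).

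Nfkbia, whose product IkappaB-alpha holds NF-kappaB in the cytoplasm, read 11.18, 11.53 and 11.44 in carrier and 11.43, 12.16 and 12.34 with MIF. Its difference was 0.60 ± 0.14, with MIF replicate 1 inside the carrier range. Olr1 encodes LOX-1, a scavenger receptor for oxidized lipoprotein. Its carrier arrays read 11.80, 10.01 and 10.78 and its MIF arrays 11.86, 11.09 and 12.04, so the replicates of a group stood as far apart as the groups. The Olr1 difference within numbers was 0.80 ± 0.19. Itga2, an integrin subunit of a collagen receptor, read 9.53, 8.25 and 8.52 in carrier and 10.04, 9.13 and 9.61 with MIF, and its groups overlapped too. Its difference was 0.83 ± 0.19. The other 5 had differences of 0.51 (Enpp4), 0.54 (Slc39a14, a zinc and iron transporter), 0.55 (Has2, a hyaluronan synthase), 0.56 (Ets2, a transcription factor) and 0.74 (Ch25h, the enzyme that makes 25-hydroxycholesterol).

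**Figure D1:**
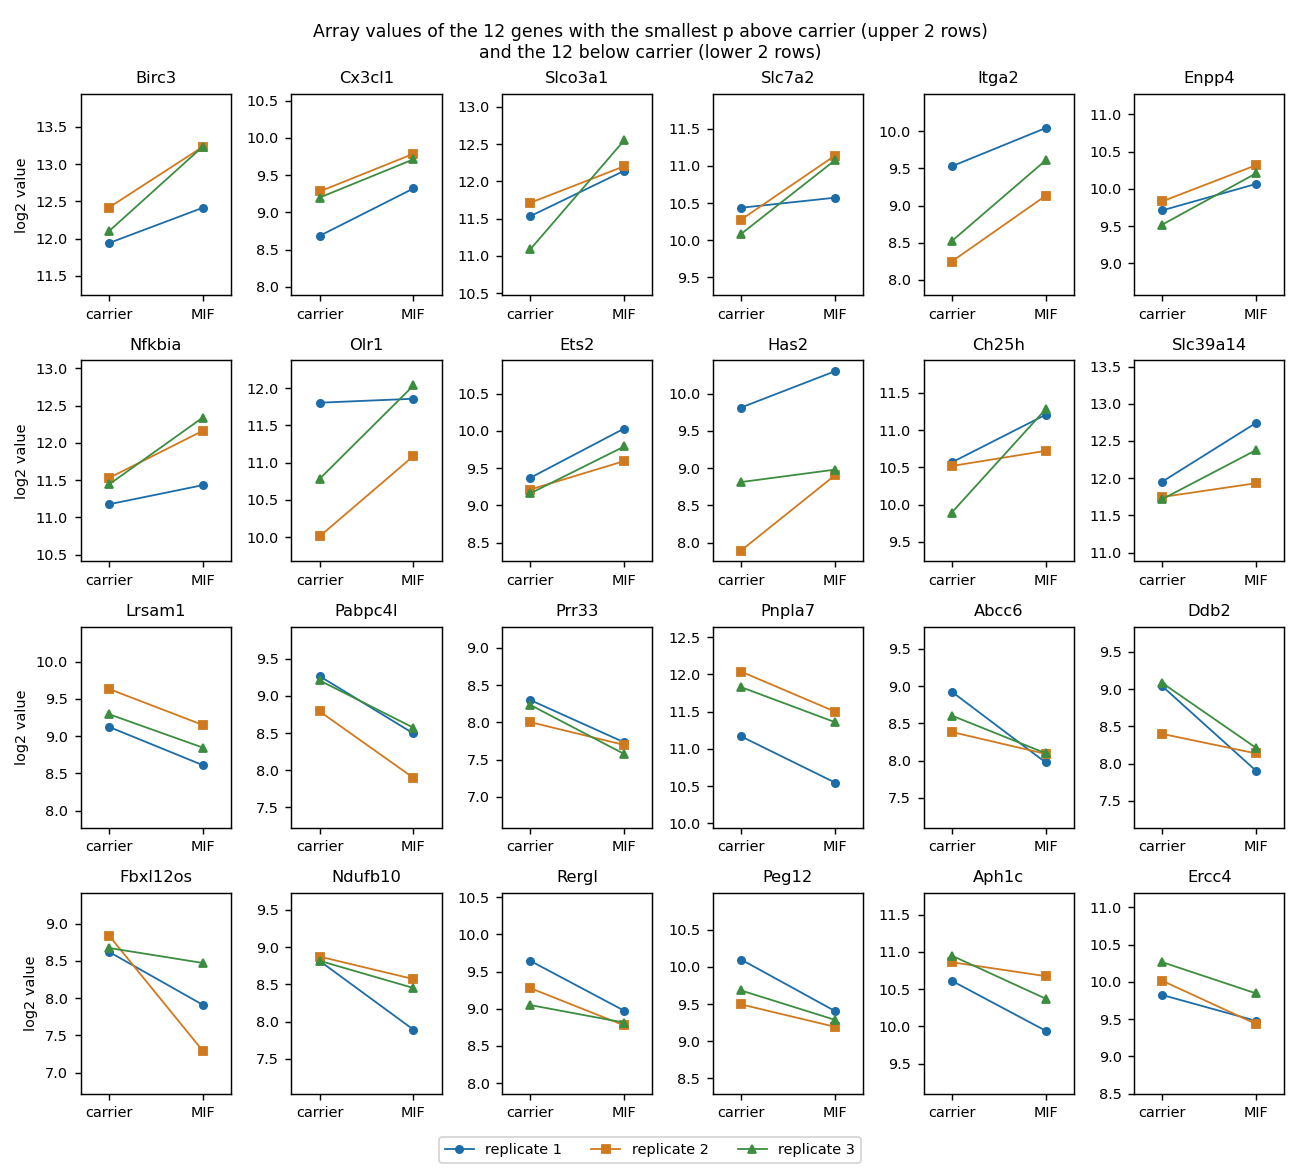
Log2 values on the 3 carrier and 3 MIF arrays of the 12 genes above carrier and the 12 below carrier that were chosen by p; each line joins arrays of the same replicate number and every panel spans the same height. All 24 genes have 3 lines of the same direction, as their choice requires, while in Olr1, Has2 and Itga2 the replicates of a group lie further apart than most lines are steep.

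The 12 genes below carrier, chosen the same way, were Lrsam1, Pabpc4l, Prr33, Pnpla7, Abcc6, Ddb2, Fbxl12os, Ndufb10, Rergl, Peg12, Aph1c and Ercc4. Ddb2 and Ercc4 act in nucleotide excision repair of DNA. Ddb2 read 9.04, 8.40 and 9.08 in carrier and 7.90, 8.14 and 8.21 with MIF, all 3 MIF arrays below all 3 carrier arrays, for a difference of -0.76 ± 0.18. Ercc4 read 9.82, 10.01 and 10.26 in carrier and 9.48, 9.43 and 9.84 with MIF, which overlapped by the third pair, for a difference of -0.45 ± 0.12. Pabpc4l, related to cytoplasmic poly(A)-binding proteins, read 9.26, 8.79 and 9.21 in carrier and 8.49, 7.90 and 8.57 with MIF. Its groups did not overlap and its difference was -0.77 ± 0.17. Abcc6 encodes a membrane transporter whose loss leads to calcified elastic tissue. It read 8.92, 8.38 and 8.603 in carrier and 7.97, 8.09 and 8.10 with MIF, without overlap, for a difference of -0.58 ± 0.14. Ndufb10, a subunit of respiratory complex I, read 8.82, 8.87 and 8.82 in carrier and 7.89, 8.57 and 8.45 with MIF. The Ndufb10 difference was -0.53 ± 0.14, with all MIF arrays below carrier. Fbxl12os, named as the opposite strand of Fbxl12, had the most negative difference of the 12, -0.82 ± 0.21. In these 12 genes the levels were mostly between 8 and 11, nearer the negative control median than the levels of Birc3 or Nfkbia. Many genes chosen above carrier lay in that range too, with carrier means such as 8.77 (Itga2), 8.84 (Has2) and 9.06 (Cx3cl1).

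Genes of the NF-kappaB pathway lay mostly above carrier. Of 15 measured subunits and feedback inhibitors, 13 were higher with MIF by any amount, against 52.7% of all named genes, and their median difference was 0.23 against 0.01 for all named genes. In 7 of the 15 all 3 pairs were higher (13.7% of all named genes) and in 0 all 3 were lower (12.7%). No member passed the adjusted test, and 5 had an unadjusted p under 0.05 with a higher value (3.36% of all named genes). Tnfaip3 encodes A20, a deubiquitinase that shuts the pathway off. It read 9.69, 10.52 and 9.99 in carrier and 9.86, 11.15 and 11.25 with MIF, for a difference of 0.69 ± 0.22. Its paired differences were 0.17, 0.64 and 1.26, smallest in replicate 1. Nfkb2, the p100 subunit of the non-canonical arm, differed by 0.49 ± 0.18, and Rela, the main activating subunit, by 0.23. Ikbkb, the kinase that marks IkappaB for degradation, and Nfkbiz, an inducible nuclear IkappaB, had values of -0.24 and -0.15. By sequence, 11 of the 18 promoter windows of this list held the kappaB consensus (61.1%), in 9 of 12 genes with a window. Some Nfkb2 windows overlap and hold the same match. Of the genes chosen by p, 1 of 8 windows above carrier held it (12.5%) and 0 of 9 below.

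Among 22 measured NF-kappaB target genes outside the cytokines, 19 were higher with MIF, with a median of 0.31, and 13 were higher in all 3 pairs and 1 lower. Vcam1, an adhesion molecule for leukocytes, read 15.17, 15.09 and 15.09 in carrier and 15.24, 15.59 and 15.78 with MIF. Every MIF array lay above every carrier array in Vcam1, and the difference was 0.42 ± 0.13. Irf1, a transcription factor that links NF-kappaB and interferon genes, read 10.74, 11.23 and 10.75 in carrier and 10.76, 11.73 and 11.98 with MIF. Its first pair was level and its mean difference was 0.58 ± 0.18. Ptgs2, which encodes the prostaglandin synthase COX-2, was below the negative control median in carrier and MIF cells alike, so its difference is not sized here. The medians of this list in replicates 1, 2 and 3 were 0.14, 0.14 and 0.66. Of its 22 promoter windows, 5 held the kappaB consensus (22.7%).

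Chemokines that draw monocytes and T cells were among the named genes with the largest differences, and their replicates disagreed. Ccl2, the main monocyte chemokine, read 13.23, 13.92 and 12.48 in carrier and 13.00, 15.00 and 15.43 with MIF. Its paired differences were -0.24, 1.07 and 2.95, so replicate 1 had no excess and replicate 3 carried most of the mean difference of 1.26 ± 0.44. Ccl7, a close relative, read 11.61, 11.56 and 11.28 in carrier and 11.42, 12.59 and 12.93 with MIF, for a difference of 0.83 ± 0.26. Ccl5, which draws T cells, read 7.43, 7.98 and 7.84 in carrier and 7.59, 8.87 and 10.54 with MIF. Its carrier levels sat close to the negative control median, and its difference was 1.25 ± 0.34. Of 16 measured CC chemokines, 10 were higher by any amount, 2 in all 3 pairs, with a median of 0.13. Only 12 of the 16 had means at or above the negative control median in both groups.

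The CXC and CX3C chemokines had 13 of 14 measured members higher with MIF and a median of 0.25, though only 7 of the 14 had means at or above the negative control median in both groups. Cxcl10, an interferon-inducible chemokine for T cells, read 6.88, 6.94 and 7.48 in carrier and 7.19, 8.93 and 9.24 with MIF. The carrier arrays were below the negative control median, so the size of the Cxcl10 difference is not given. Cxcl1, which draws neutrophils, read 7.90, 7.27 and 7.47 in carrier and 7.88, 8.14 and 8.39 with MIF, with a level first pair and a difference of 0.59 ± 0.19. Among 17 cytokines and colony-stimulating factors, 11 were higher and 6 were higher in all 3 pairs. Tnf, the cytokine that sets off NF-kappaB and death signalling, read 6.87, 8.31 and 7.38 in carrier and 7.21, 8.84 and 9.42 with MIF. Its carrier mean of 7.52 was just below the negative control median. Il1b read 9.18, 9.15 and 8.497 in carrier and 8.82, 9.63 and 10.66 with MIF, and the pairs ran from -0.36 in replicate 1 to 2.16 in replicate 3. Csf1, the growth factor of macrophages, had high levels, 16.25, 16.29 and 16.19 in carrier and 16.32, 16.62 and 16.55 with MIF, without overlap, and a difference of 0.25 ± 0.12.

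The interferon-inducible GTPases, which act against pathogens inside cells, had the highest median of the 34 gene lists over 3 pairs, 0.58 over 11 measured members (0.25 without replicate 3), and all 11 had means at or above the negative control median. Of these, 10 were higher with MIF and 7 were higher in all 3 pairs. Tgtp2 read 7.79, 7.72 and 7.93 in carrier and 8.25, 8.71 and 10.32 with MIF, and its groups did not overlap. Its difference was 1.28 ± 0.35, with paired values of 0.46, 0.98 and 2.40. Iigp1 read 8.10, 8.10 and 8.07 in carrier and 8.37, 8.92 and 10.01 with MIF, also without overlap, for a difference of 1.01 ± 0.28. Gbp2, a guanylate-binding protein, read 9.25, 10.40 and 9.80 in carrier and 9.46, 10.91 and 11.72 with MIF, for a difference of 0.88 ± 0.26. Gbp4 differed by 1.01 ± 0.32. In all 4 of these genes replicate 3 had the largest paired difference and replicate 1 the smallest. Gbp8 went the other way in all 3 pairs, -0.40, -0.36 and -0.37, with a difference of -0.38 ± 0.13. The ISRE core lay in 7 of the 8 promoter windows of the list (87.5%), and the kappaB consensus in 0.

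Other interferon-stimulated genes were less marked: 21 of 28 were higher, with a median of 0.14, and 9 were higher in all 3 pairs. Their list median was -0.09 in replicate 1, 0.11 in replicate 2 and 0.37 in replicate 3. Ifit3, which binds viral RNA in a complex of Ifit proteins, read 9.76, 11.78 and 10.81 in carrier and 10.27, 12.13 and 12.00 with MIF. The Ifit3 groups overlapped widely, and the difference within numbers was 0.68 ± 0.25. Oasl2, of the oligoadenylate synthase family, differed by 0.71 ± 0.30 and Ddx58, the RNA sensor RIG-I, by 0.35 ± 0.14. Genes of MHC class I and antigen processing had 12 of 13 members higher, 7 of them in all 3 pairs, at a median of 0.16. That median was 0.077 without replicate 3 in both groups, 0.097 without MIF replicate 3 and 0.088 without carrier replicate 3. Psmb9, an immunoproteasome subunit, differed by 0.28 ± 0.12. MHC class II genes had 3 of 9 higher, and 6 of the 9 had a mean below the negative control median in at least 1 group.

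**Figure D2:**
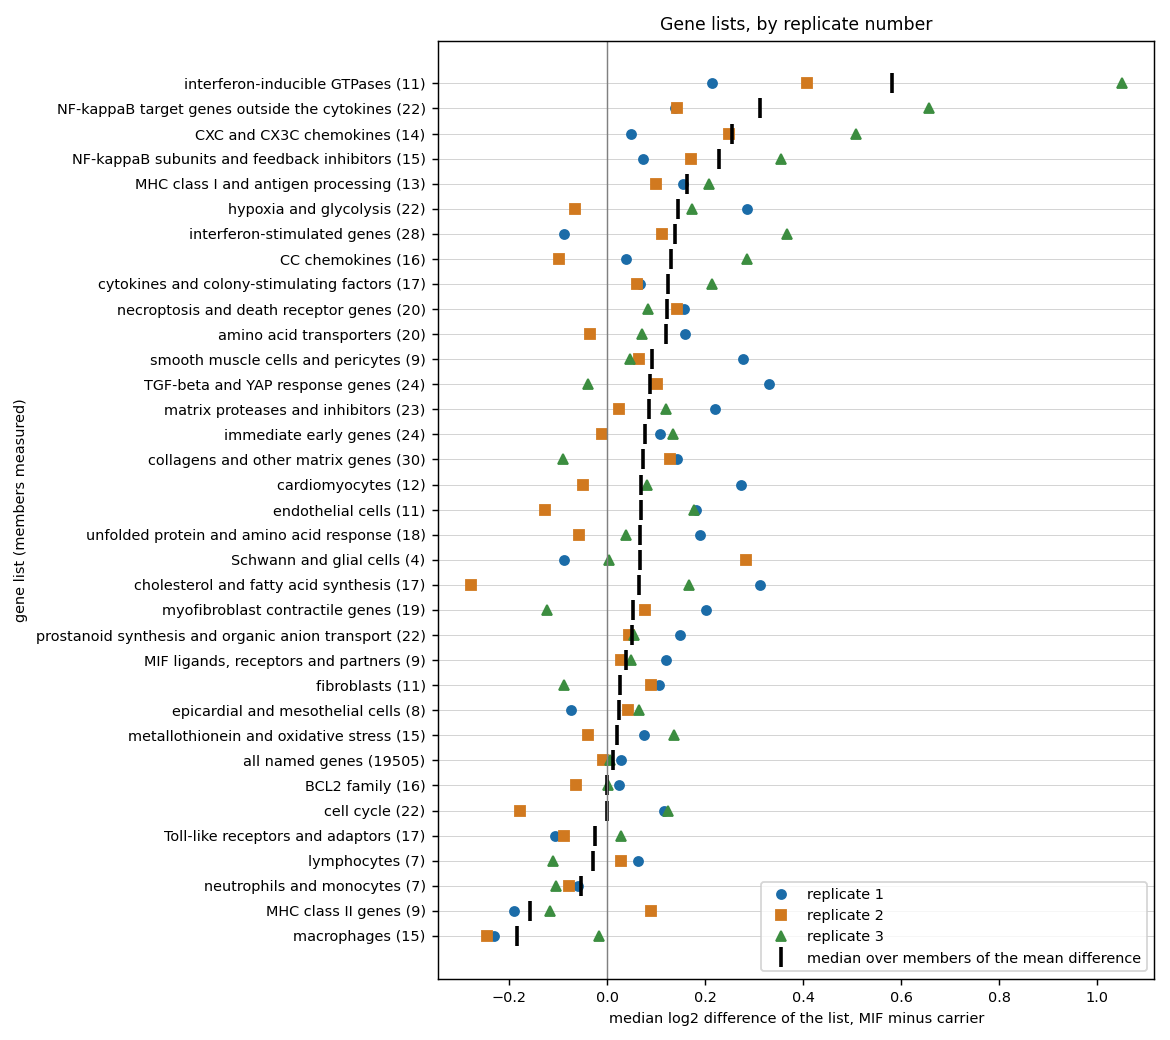
Median log2 difference, MIF minus carrier, of each gene list (members measured in brackets), for replicates 1, 2 and 3 (symbols) and for the mean of the 3 pairs (bars); the vertical line marks 0. The interferon-inducible GTPases sit highest at 0.58, the NF-kappaB target list reaches 0.66 in replicate 3, and the macrophage markers sit lowest at -0.18. The size of both ends depended on single replicates. The GTPase medians were 0.21, 0.41 and 1.05 in replicates 1, 2 and 3. Without replicate 3 the GTPase median was 0.25, below the 0.26 of the TGF-beta and YAP list. The macrophage medians were -0.23, -0.25 and -0.02 in replicates 1, 2 and 3, and without MIF replicate 2 the macrophage median was -0.036.

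In the myofibroblast programme itself the medians were small, and they were highest in replicate 1. Of 24 TGF-beta and YAP response genes, 20 were higher, with a median of 0.09, and the medians in replicates 1, 2 and 3 were 0.33, 0.10 and -0.04. Ccn2 (connective tissue growth factor) read 13.65, 14.05 and 14.03 in carrier and 14.80, 14.62 and 13.86 with MIF. It was higher in replicates 1 and 2 and lower in replicate 3, with a mean difference of 0.52 ± 0.22. Ltbp2, a protein of elastic microfibrils that is related to latent TGF-beta binding proteins, read 7.88, 8.13 and 8.44 in carrier and 8.78, 8.90 and 8.43 with MIF. Its paired differences were 0.90, 0.77 and -0.01, for a mean of 0.55 ± 0.17. Of 30 collagens and other matrix genes, 22 were higher, 8 in all 3 pairs and 2 lower in all 3, with a median of 0.07. Eln, which encodes elastin, read 13.77, 15.89 and 15.48 in carrier and 14.48, 16.22 and 15.67 with MIF, so replicate 1 was low in both groups. The Eln difference was 0.41 ± 0.15, against 0.21 for Col1a1 and -0.01 for Col3a1, the main fibrillar collagen genes. Thbs1, a matrix protein that activates TGF-beta, differed by 0.31 ± 0.14. Among 19 contractile genes, 14 were higher with a median of 0.05, and the Acta2 difference was 0.09 ± 0.12. Mylk, the kinase that activates smooth muscle myosin, had the smallest p of the list and a value of -0.34 ± 0.15. Matrix proteases and their inhibitors had 18 of 23 members higher at a median of 0.09. Plaur, the urokinase receptor, differed by 0.34 ± 0.15, while Mmp13, a collagenase, had a carrier mean below the negative control median.

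Genes of necroptosis and death receptor signalling had 15 of 20 members higher, 8 in all 3 pairs and 2 lower in all 3, with a median of 0.12. Ripk3, the kinase that starts necroptosis, read 8.29, 8.72 and 8.39 in carrier and 9.14, 8.89 and 8.86 with MIF. All Ripk3 values with MIF lay above all carrier values, and the difference was 0.50 ± 0.14. Mlkl, the Ripk3 substrate that breaks the plasma membrane, read 11.91, 12.01 and 12.04 in carrier and 12.15, 12.21 and 12.60 with MIF, also without overlap, for 0.33 ± 0.13. Casp8, the protease that blocks necroptosis, read 15.77, 15.59 and 15.57 in carrier and 15.49, 15.53 and 15.56 with MIF, a difference of -0.12 ± 0.11. Tnfrsf12a, the receptor of the cytokine TWEAK, differed by 0.55 ± 0.16, with 0.97 in replicate 1 and 0.14 in replicate 2. Fasl and Tnfsf10, ligands of death receptors, were below the negative control median throughout. The BCL2 family had 8 of 16 members higher and a median of 5e-04. Bcl2l1, which encodes the survival protein Bcl-xL, differed by 0.33 ± 0.14.

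The ligands and receptors of the MIF system had differences within 2 standard errors of 0. The Mif gene itself read 10.27, 10.81 and 10.58 in carrier and 10.66, 10.84 and 11.20 with MIF, a difference of 0.35 ± 0.19. Its relative Ddt had a difference of -0.24 ± 0.17. Cd44 had 0.13 ± 0.14, Cxcr4 -0.04 ± 0.19 and Cxcr2 -0.00 ± 0.25. Cxcr2 levels were close to the negative control median, and Ackr3 had a carrier mean below it. Cd74 was not analysed here. Of the 9 measured members of the list, 5 were higher and 1 was higher in all 3 pairs. Toll-like receptors and adaptors had 7 of 17 higher, 2 in all 3 pairs and 6 lower in all 3. Tlr8, an endosomal sensor of RNA, read 11.40, 11.76 and 11.63 in carrier and 10.51, 11.26 and 11.12 with MIF. The MIF arrays of Tlr8 all lay below the carrier arrays, with a difference of -0.63 ± 0.20.

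Metabolic and stress lists had small medians. In the hypoxia and glycolysis list 20 of 22 were higher and the median was 0.15, but only 5 were higher in all 3 pairs, and their median was -0.07 in replicate 2. Cholesterol and fatty acid synthesis genes were higher in 13 of 17, with medians of 0.31, -0.28 and 0.17 in replicates 1, 2 and 3, and 0 of 17 had the same direction in all 3 pairs. Sqle, a rate-setting enzyme of cholesterol synthesis, had paired differences of 0.91, -0.45 and 0.46. The unfolded protein and amino acid response had 15 of 18 higher at a median of 0.07, with Hspa5, the chaperone BiP, at 0.14 ± 0.10. Immediate early genes had 19 of 24 higher at 0.08, led by Myc at 0.59 ± 0.21, whose paired differences were 0.44, 0.18 and 1.16. Metallothionein and oxidative stress genes had 8 of 15 higher at a median of 0.02, and the metal-binding Mt2 differed by 0.58 ± 0.23. The carrier level of Mt2 was low in replicate 3 (14.37, against 15.54 and 15.21), and the 3 MIF levels lay between 15.50 and 15.74. Cell cycle genes were even, with 11 of 22 higher. Amino acid transporters had 14 of 20 higher at 0.12, and the list of prostanoid synthesis and organic anion transport, which holds Slco3a1, had 13 of 22 higher at 0.05.

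Markers of other cell types were read on the same arrays, since in a bulk culture fewer cells of a type and less RNA per cell cannot be told apart. Of 15 macrophage markers, 1 was higher with MIF, 7 were lower in all 3 pairs, and the median was -0.18. Without MIF replicate 2 that median was -0.036, and without MIF replicate 3 it was -0.29. Adgre1, an adhesion receptor of the macrophage surface, differed by -0.30 ± 0.13, and the adaptor Tyrobp by -0.32 ± 0.14. The log2 of the summed level of the 15 markers ranged from 18.56 to 19.19 in carrier and from 18.36 to 19.00 with MIF. In replicate order it was 18.56, 19.19 and 18.95 in carrier and 18.36, 19.00 and 18.87 with MIF, lower with MIF in each pair. Of these markers, 14 of 15 lay above the negative control median and Cd163 below it, in carrier as with MIF. In the second set of 6 arrays the macrophage median was 0.12, with 11 of 15 higher after MIF. Endothelial markers had 10 of 11 above the negative control median, and their summed level ran from 12.91 to 15.33 in carrier and from 12.85 to 15.27 with MIF. That range is a difference between replicate numbers: replicate 1 was highest and replicate 2 lowest in both groups. Cardiomyocyte markers, 9 of 12 above that level, summed to between 13.26 and 15.30 in carrier and between 13.32 and 15.06 with MIF. Neutrophil and monocyte markers (6 of 7) and lymphocyte markers (6 of 7) lay below the negative control median. The sum of fibroblast markers stayed between 19.37 and 19.52 in carrier and between 19.45 and 19.55 with MIF. Many of the chemokine, Toll-like receptor and cytokine genes above are also expressed by macrophages and endothelial cells, and the part of those cells in their values was not tested.

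The 3 replicate numbers did not show the same differences. Over the 11135 genes at or above the negative control median, the correlation of paired differences across genes was -0.00914 between replicates 1 and 2, 0.189 between 1 and 3, and 0.00539 between 2 and 3. The standard deviation of the differences over genes was 0.32, 0.22 and 0.24. In replicate 1, 41 genes were higher by at least 1 and 21 lower. Replicate 2 had 5 and 4, and replicate 3 had 41 and 0. Genes are not independent replicates, and the 2 arrays of a pair each carry their own noise. The 6 genes in which a replicate stood farthest from the mean of the other 2 were Ccl2, Ccl5, Il1b, Gpr84, Fgf23 and Saa3, in every case because replicate 3 was higher. Gpr84, a receptor for medium-chain fatty acids on myeloid cells, had paired differences of -0.64, 0.14 and 1.85. Saa3, an acute-phase protein of inflamed tissue, had -0.29, -0.57 and 1.32, and Fgf23, a phosphate-regulating hormone, had -0.10, 0.68 and 2.10. Without replicate 3 in both groups, the list median was 0.25 for the interferon-inducible GTPases, 0.16 for the NF-kappaB target genes, 0.17 for the NF-kappaB subunits and feedback inhibitors and 0.0072 for the CC chemokines. The TGF-beta and YAP list then had a median of 0.26 and the matrix list 0.16, both above their values over 3 pairs. Leaving out MIF replicate 3 turned the Saa3 mean from 0.15 to -0.39.

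**Figure D3:**
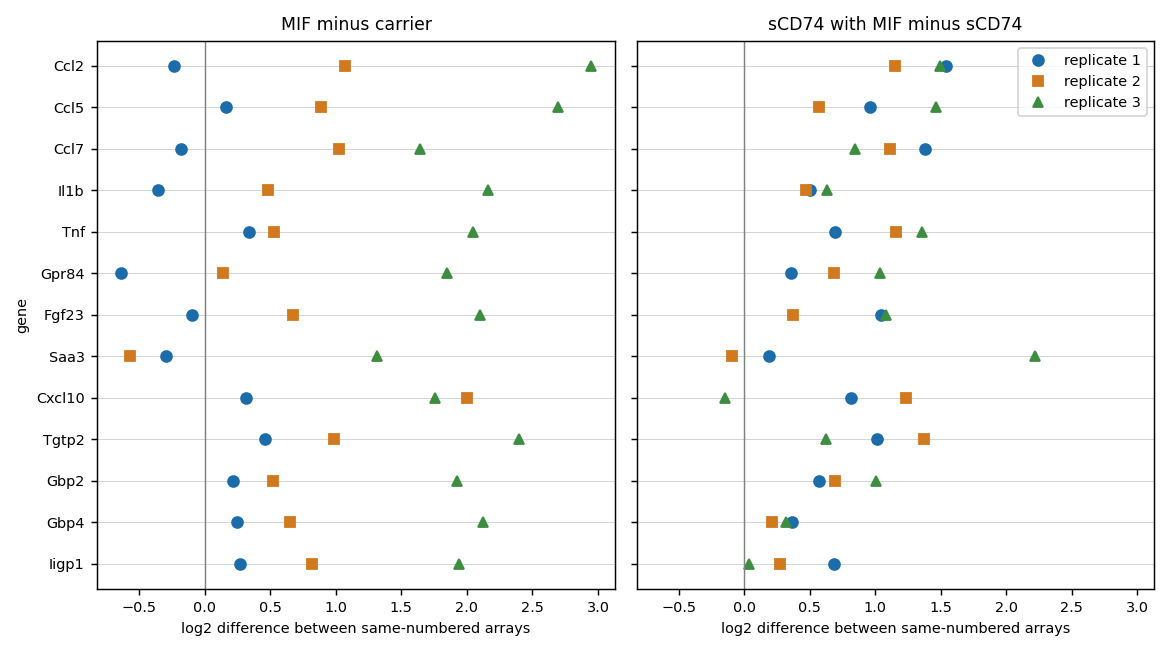
Log2 differences between same-numbered arrays for 13 chemokine, cytokine, acute-phase and GTPase genes, MIF minus carrier on the left and sCD74 with MIF minus sCD74 on the right, with replicates 1, 2 and 3 as symbols. On the left replicate 3 lies at 2.95 for Ccl2 and 2.70 for Ccl5 while replicate 1 lies at -0.24 and 0.16; on the right the 3 replicates of Ccl2 lie between 1.15 and 1.54.

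The second addition of MIF, to cells that also received sCD74, was measured on 6 other arrays and gave a look at the same genes without reuse of an array. There too no probe set passed (0 of 22206, 0%, limma), with 1198 at an unadjusted p under 0.05 (5.39%, of which 3.04% higher and 2.36% lower) and a smallest adjusted p of 0.612. All 12 genes chosen above carrier were higher in the second set, where 51.7% of all named genes were. Their median difference was 0.63 in the first set and 0.23 in the second. Both sets take their standard errors from the same fit of 12 arrays, in which these genes were chosen for a small p, so no count by p is given for them in the second set. Birc3 again lay higher by 0.80 ± 0.14, with paired differences of 0.72, 0.74 and 0.95, and Nfkbia by 0.62 ± 0.14. Slco3a1 lay higher by 0.48 ± 0.19, Olr1 by 0.50 ± 0.19 and Ch25h by 0.46 ± 0.19. Cx3cl1, Slc7a2, Itga2 and Enpp4 had smaller values in the second set, 0.19, 0.19, 0.19 and 0.13. Without MIF, the mean with sCD74 already lay above the carrier mean in each of the 12 genes chosen above carrier. The means were 9.29 against 9.06 (Cx3cl1), 10.805 against 10.265 (Slc7a2), 9.04 against 8.77 (Itga2) and 9.91 against 9.69 (Enpp4). They were 11.96 against 11.45 for Slco3a1, and nearly level for Birc3 (12.18 against 12.15) and Nfkbia (11.39 against 11.38). The part of these starting levels in the smaller values was not tested. The 12 genes below carrier had a median of -0.52 in the first set and -0.05 in the second, where 8 of 12 were lower (48.3% of all named genes were lower). Ddb2 had -0.20 ± 0.18 and Pabpc4l 0.07 ± 0.17. Their means with sCD74 and no MIF, 8.46 and 8.68, already lay below the carrier means of 8.84 and 9.09. The same direction held in each of the 12 genes below carrier, such as Lrsam1 with 8.91 against 9.35. The carrier arrays enter the choice of the genes in both directions, and their part in these starting levels was not tested.

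Over the 656 genes that lay higher in the first set (unadjusted p under 0.05), 430 (65.5%) were higher in the second, and of the 576 lower genes 358 (62.2%) were lower. Across all 19505 named genes the differences of the 2 sets correlated at r = 0.226, and across the 11135 genes at or above the negative control median at r = 0.296. Same-numbered pairs of the 2 sets correlated at 0.145, 0.179 and 0.442 for replicates 1, 2 and 3. Pairs of unlike number ran from -0.138 (first-set replicate 2, second-set replicate 3) to 0.247 (first-set 3, second-set 1). First-set replicate 1 correlated at 0.208 with second-set replicate 3, above the value for its own number. Cells of the same number may share a source, so these values describe the arrays and are given without a test.

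**Figure D4:**
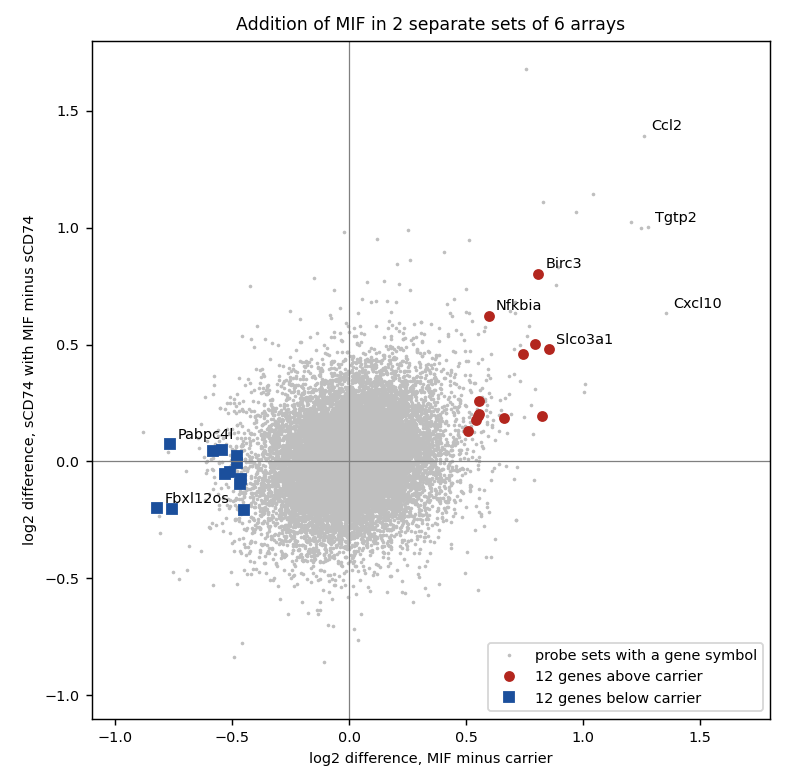
Each dot is a probe set with a gene symbol, at its mean log2 difference for MIF minus carrier (horizontal) and for sCD74 with MIF minus sCD74 (vertical), both fitted over 3 pairs; the 12 genes chosen above carrier and the 12 chosen below are coloured. Birc3 lies near the diagonal at 0.81 and 0.80 and Nfkbia at 0.60 and 0.62, while the 12 genes below carrier lie between -0.21 and 0.07 on the vertical axis.

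Several chemokine, GTPase and NF-kappaB members lay higher in the second set as well. Ccl2 lay higher by 1.39 ± 0.44 with paired differences of 1.54, 1.15 and 1.495, so that here the replicates stood close together. Ccl7 lay higher by 1.11 ± 0.26, Tnf by 1.07 ± 0.27, Ccl5 by 1.00 ± 0.34, Tgtp2 by 1.00 ± 0.35, Gbp2 by 0.76 ± 0.26 and Tnfaip3 by 0.64 ± 0.22. The Tnf mean with sCD74 and no MIF, 7.54, was at about the negative control median, which limits the size of its difference. Other GTPases had smaller values there than in the first set: Iigp1 had 0.33 ± 0.28 and Gbp4 0.30 ± 0.32, each about 1 SE from 0. The Iigp1 and Gbp4 means with sCD74 and no MIF, 8.58 and 8.93, already lay above the carrier means of 8.09 and 8.20. Those of Tgtp2 (8.43 against 7.81) and Gbp2 (10.53 against 9.81) did too. The part of these starting levels was not tested. The GTPase list median was 0.27 in the second set, against 0.58 in the first, with 11 of 11 members higher and 7 higher in all 3 pairs. Of the 15 NF-kappaB subunits and feedback inhibitors, 11 were higher in all 3 pairs of the second set (14.8% of all named genes) and 1 was lower (12.3%), with a median of 0.31. The CC chemokines had a median of 0.37 there, against 0.13 in the first set. The TGF-beta and YAP list had -0.04 and the matrix list -0.08, with 8 of 30 matrix genes higher. Toll-like receptors and adaptors had 13 of 17 higher. Tlr2, a receptor of bacterial lipoprotein, differed by 0.26 ± 0.18 in the first set and 0.86 ± 0.18 in the second. The difference between the 2 sets was itself tested, and 0 of 22206 probe sets passed (0%, limma), with 831 at an unadjusted p under 0.05 (3.74%, 1.93% positive and 1.81% negative) and a smallest adjusted p of 1. For Birc3 that difference was -0.01 ± 0.20 and for Nfkbia 0.03 ± 0.20. Over the 12 genes above carrier it ran from -0.63 (Itga2) to 0.03 and was negative in 11, with -0.47 ± 0.21 for Slc7a2, -0.38 ± 0.17 for Enpp4 and -0.36 ± 0.15 for Cx3cl1. Over the 12 genes below carrier it ran from 0.24 to 0.84 ± 0.24 (Pabpc4l) and was positive in all 12. These genes were chosen by their values in the first set, which enter this difference.

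A single unnamed probe set had the largest difference of all. Probe set TC1700001227.mm.2 read 6.53, 6.70 and 6.74 in carrier and 11.87, 10.75 and 11.63 with MIF, and carrier lay below the negative control median. On the arrays with sCD74 it read 5.63, 5.56 and 9.94, and with both proteins 5.32, 8.97 and 5.94. It thus lay above the negative control median on 5 of 12 arrays, and in the second set 1 array without MIF and 1 array with it were among them. Its range over the 12 arrays, 6.55, was the largest of all 22206 probe sets. In the fit of 12 arrays its adjusted p was 0.704, and in a fit of the 6 carrier and MIF arrays alone it was 1.03e-05, the only probe set called there. It has no gene symbol in the platform table and was not identified further.

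**Figure D5:**
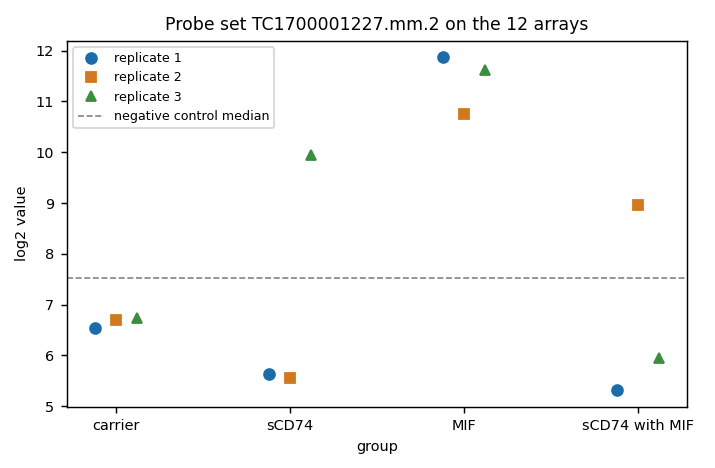
Log2 value of probe set TC1700001227.mm.2 on each of the 12 arrays, by group (horizontal) and replicate number (symbol), with the mean negative control median of 7.53 as a dashed line. The 3 MIF arrays lie between 10.75 and 11.87 and the 3 carrier arrays below the line, while sCD74 replicate 3 and sCD74 with MIF replicate 2 lie at 9.94 and 8.97, apart from their own groups.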

How the data were processed

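Per the submitters' processing notes, the authors used RMA, Affymetrix Expression Console and Transcriptome Analysis Console (no versions). The deposited values are log2 levels, 1 column per array, and were used as deposited; the step that took them past the range of plain RMA was not given in those notes. Of 28846 probe sets, 6640 controls were left out. Of the other 22206, 19572 had 1 symbol in the platform table (all matched by Entrez ID to RefSeq genes of GRCm38.p6) and 2634 had none. Where probe sets shared a symbol, the brightest stood for the gene, which dropped 67.

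All 22206 were fitted over the 12 arrays with lmFit and eBayes of limma 3.58.1 (R 4.3.3), with 4 group means and the replicate number as a block, which left 6 residual degrees of freedom. Tests were two-sided, adjusted by Benjamini-Hochberg over all 22206 at 0.05, and run on simulated data beforehand. Errors of differences are standard errors of this fit, which pools the spread of all 12 arrays, and not the scatter of the paired differences. The block was used because same-numbered arrays share a code in their titles: their deviations from the group means correlated at 0.481, 0.389 and 0.337 for MIF and carrier, and each of the 12 arrays correlated best with an array of its own number. With a block of few pairs, precision rests mainly on the number of arrays.

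Named genes were the 12 of smallest p in each direction (3 pairs of 1 sign, both means at or above the negative control median). Predicted genes, olfactory and vomeronasal receptor genes and small RNA genes were passed over there. Up to 4 members per list were added by p, and a fixed list around MIF and cell death. The 6 genes with the largest deviation of 1 replicate came last, and the report gives other list members as examples. The members and lists were chosen with earlier results of these data known. RefSeq promoter windows were searched on both strands; 8 of the 12 genes above carrier and 9 of the 12 below had one. Alternatives covered the block, variance model, array weights, normalization, a filter on low values, 1 probe set per gene and leaving out arrays.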

Additional observations from a re-analysis of the deposited data

Results flagged for a closer look

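In 5 named genes all 3 pairs lay on 1 side of carrier without sCD74 and on the opposite side with it. The difference between the sets (with sCD74 minus without) was 0.60 ± 0.21 for Ccl19, -0.35 ± 0.17 for Col5a2, -0.42 ± 0.16 for Abcc4, -0.40 ± 0.15 for Cenpf and 0.21 ± 0.16 for Casp8. The adjusted p of this difference was 1 for each by limma. Such opposite signs were found in 5 of the 122 genes named by the rule (4.1%) and in 460 of all 19505 named genes (2.36%). Of the genes with 3 pairs of the same sign without sCD74, they were 5 of 89 (5.62%) against 460 of 5147 (8.94%). Both means of Ccl19, a chemokine of lymphoid tissue, were below the negative control median. Col5a2, a chain of type V collagen, had paired differences of 0.44, 0.05 and 0.22 without sCD74 and -0.04, -0.12 and -0.19 with it. Abcc4, which exports prostaglandins and cyclic nucleotides, had 0.27, 0.23 and 0.52 without and -0.14, -0.11 and -0.01 with sCD74. Cenpf, a kinetochore protein of dividing cells, had 0.21, 0.27 and 0.14 without and -0.27, -0.12 and -0.19 with it. Casp8 had -0.28, -0.07 and -0.01 without and 0.06, 0.13 and 0.10 with it. In all 5 genes the mean with sCD74 and no MIF already differed from carrier in the direction of the MIF mean. It was 13.88 against 13.58 in carrier for Col5a2, 9.88 against 9.66 for Abcc4, 7.81 against 7.72 for Cenpf and 15.52 against 15.64 for Casp8. The part of these starting levels in the opposite signs was not tested.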

How the results depend on the processing

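Without the replicate block, the counts at an unadjusted p under 0.05 were 742 for MIF against carrier, 600 for MIF with sCD74 against sCD74 and 407 for the difference between these; with the filter on low values they were 842, 796 and 433. Leaving out arrays gave 797 (without replicate 1; 852 without MIF replicate 1) to 1861 (without carrier replicate 2), 784 (without sCD74 replicate 3) to 1485, and 604 to 1208. No adjusted call was made under leave-outs or without the block. MIF against carrier had 1 call in the fit of its 6 arrays (TC1700001227.mm.2) and 1 with trend, robust variance and 1 probe set per gene, an alternative chosen after seeing the data (Birc3). MIF with sCD74 against sCD74 had 2 calls in each of those fits: Clec4e and Ccl2, then Clec4e and Birc3.

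Of 122 named genes, 8 turned sign under some alternative. Over leave-outs the MIF minus carrier value ran from -0.0015 to 0.25 for Fdft1, -0.056 to 0.27 for Cd44, -0.012 to 0.56 for Tlr2, -0.26 to 0.18 for Cxcr4, -0.21 to 0.25 for Cxcr2 (0.12 with array weights), -0.020 to 0.15 for Acta2, -0.25 to 0.99 for Gpr84 and -0.43 to 0.52 for Saa3. The cause was not tested. Of 665 list medians under the alternatives, 28, from 10 lists, differed from the value reported by more than the spread between pairs. Small medians took both signs over leave-outs, such as -0.02 to 0.15 for the contractile genes, -0.03 to 0.25 for cholesterol and fatty acid synthesis and -0.04 to 0.12 for the unfolded protein response. The amino acid transporter median ran from 0.013 (without replicate 1) to 0.21, and that of interferon-stimulated genes from 0.05 (without carrier replicate 2) to 0.27. Members below the negative control median, including Cxcl10 and Tnf in carrier, have differences limited by signal over background.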
